A study of Homo sapiens with 25 samples.

Results

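The interferon-stimulated genes are a set of 42 genes that cells transcribe in response to interferon, the cytokine that infected cells release as an alarm. The members were taken by name from a list, and all 42 were found among the 58302 genes of the count files, where Ensembl identifiers were paired with symbols. They were followed in hiF-T cells, a human fibroblast-like line derived from BJ skin fibroblasts that carries an inducible hTERT transgene. The questions put to the data were which differences between libraries belong to the numbered replicates, which to the sort gates, and which to the drugs.

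The sort set held 20 bulk RNA-seq libraries. Cells were sorted on a dye, and each of 4 numbered replicates gave a high dye, a midhigh dye, a midlow dye, a low dye and an ungated library. Proliferation status is the stated basis of the sort, but no label ties slow or fast division to a dye level. The drug set held 5 libraries, namely LSD1 inhibition (replicates 1 and 2), DOT1L inhibition (replicate 1), DMSO (replicate 1) and no drug (replicate 2). LSD1 is a histone demethylase and DOT1L a histone methyltransferase, and the labels give no compound, dose or time. All groups share the hTERT line and its wild-type (WT) genotype label. The labels call the replicates biological without saying that they were separate cultures, so p-values here measure the spread between these libraries.

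Type I interferons bind the IFNAR1-IFNAR2 receptor and type III interferons bind IFNLR1 with IL10RB. Both activate the kinases JAK1 and TYK2, which phosphorylate STAT proteins, among them STAT2. STAT2 and IRF9 are parts of the ISGF3 complex, which binds a DNA element called the interferon-stimulated response element (ISRE) in the promoters of the target genes. The targets include enzymes and RNA-binding proteins that block viral replication, the ISG15 modifier and its conjugation enzymes, and parts of the signalling chain itself. Fibroblasts respond to interferon and keep a low level of many of these transcripts without added interferon.

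Each library held 15015039 to 20030093 gene counts, and a count of 0 allowed a level of up to 0.150 to 0.200 CPM (counts per 1000000 reads assigned to genes), set by 3 counts and covering counting error only. The summed level of 10 fibroblast markers was 17480 to 30325 CPM over the 25 libraries, with COL1A1 at 2166 to 5044 CPM and FN1 at 10554 to 19450 CPM, while THY1 stood at only 0.0592 to 1.72 CPM. The 10 leukocyte markers together reached 0.147 to 2.06 CPM, and CD3E, LYZ, LILRA4 and NCR1 were at 0 in 24 of the 25 libraries. One library stood apart. The library labelled ungated replicate 3 was closest to the DMSO library, with a chi-square of 4.07 per degree of freedom over genes, and was far from the 4 gates of its own replicate, at 22.6 to 33.6. The other ungated libraries lay at 3.58 to 22.7 from their own gates. The labels do not settle which cells this library holds, so its values stand under that name, and counts of called members in the sort set are given with and without it, or over the gated libraries.

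Measured per length of exon, the most abundant member was IFITM3, a membrane protein that restricts viral entry, with a median of 199 TPM (transcripts per 1000000) over the sort libraries. The next were IFI6 at 54.5, ISG15 at 50.5, STAT2 at 40.4, SAMD9 at 39.4, IFITM2 at 37.6, TRIM22 at 33.1, IFIT5 at 31.7 and SAMD9L at 21.3 TPM. Of the 42 members, 30 had a median of at least 1 TPM and 14 of at least 10 TPM. MX2, RSAD2, CMPK2 and XAF1 had medians under 0.1 TPM. In the sort set 36 members passed the filter on low counts, together with 14592 genes in all. The untested members were MX2, RSAD2, CMPK2, XAF1, OAS1 and BST2.

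The promoter windows of IFIT1, IFI6 and ISG15, which differed between replicates, and of SAMD9L, which differed between gates, are printed. They show where a fixed pattern of the interferon response element was matched. ISG15 also rose with the dye, as did IFIT1 and IFI6 in a fit with the replicate number as a block, all described below. RefSeq (GRCh38.p14) gave a promoter of 250 bases before to 50 bases after the start for 33 of the 42 members. The ISRE was searched as GAAANNGAAA on both strands, where N is any base and matches may overlap each other. It was found in 20 of these 33 promoters, against 3.65% of 27305 promoters in the RefSeq table. The GAS element, TTCNNNGAA, which STAT dimers bind and which reads the same on both strands, was in 10 of the 33 and in 7.88% of all. Of the 21 members higher in replicate 2 over the gated libraries (described next), 18 had a promoter in the table, of which 13 held an ISRE and 5 a GAS element. Of the 5 members called higher for high against low dye, 4 had a promoter, of which 1, that of HERC5, held an ISRE and 1 a GAS element. The sequences run 5′ to 3′ on the gene's strand, with ISRE matches in capitals.
IFIT1 (chr10:89392373-89392672, plus strand): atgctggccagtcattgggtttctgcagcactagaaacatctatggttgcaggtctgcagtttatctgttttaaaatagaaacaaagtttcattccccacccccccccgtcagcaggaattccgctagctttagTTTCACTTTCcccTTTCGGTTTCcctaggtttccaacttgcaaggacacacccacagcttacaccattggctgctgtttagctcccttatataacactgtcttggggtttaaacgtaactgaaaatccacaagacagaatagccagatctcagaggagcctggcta
IFI6 (chr1:27672143-27672442, minus strand): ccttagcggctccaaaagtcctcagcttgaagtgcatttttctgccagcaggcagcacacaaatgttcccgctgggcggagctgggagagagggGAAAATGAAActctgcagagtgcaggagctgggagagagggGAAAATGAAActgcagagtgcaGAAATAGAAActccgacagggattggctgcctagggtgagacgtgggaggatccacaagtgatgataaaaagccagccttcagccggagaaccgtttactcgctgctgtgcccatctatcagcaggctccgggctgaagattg
ISG15 (chr1:1013247-1013546, plus strand): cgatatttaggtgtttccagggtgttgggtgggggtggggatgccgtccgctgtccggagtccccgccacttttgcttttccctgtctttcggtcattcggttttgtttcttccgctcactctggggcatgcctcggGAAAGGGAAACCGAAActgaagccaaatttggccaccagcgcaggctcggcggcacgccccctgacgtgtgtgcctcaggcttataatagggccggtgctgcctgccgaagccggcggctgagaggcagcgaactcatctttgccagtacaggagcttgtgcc
SAMD9L (chr7:93148336-93148635, minus strand): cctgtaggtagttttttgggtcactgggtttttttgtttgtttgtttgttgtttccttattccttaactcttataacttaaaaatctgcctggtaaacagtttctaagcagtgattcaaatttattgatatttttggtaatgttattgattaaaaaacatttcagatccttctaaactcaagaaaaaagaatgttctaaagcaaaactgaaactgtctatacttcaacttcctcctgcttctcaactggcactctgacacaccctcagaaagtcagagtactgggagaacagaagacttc
IFIT1 and ISG15 each have 2 matches and IFI6 has 3, of which the first 2 lie in repeated copies of one stretch. SAMD9L has no match to this pattern in its window, and variants of the element were not searched. A match is only a match of letters.

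In replicate 2, IFIT1, IFI6, IFI44, IFI44L, MX1, OAS2 and OAS3 were higher than in every other replicate in all 4 gates, with log2 fold changes of 1.10 to 1.86 over the gated libraries. Gene positions below are on GRCh38 from the GENCODE 29 annotation. The first of these genes, IFIT1 (ENSG00000185745, chromosome 10 from 89392546 to 89406486), codes for a protein that binds viral RNA lacking the host's cap methylation. IFIT1 stood at 8.04, 11.5, 13.2 and 12.6 CPM in replicate 2 from low to high dye, against 5.51, 4.27, 5.96 and 5.08 CPM in replicate 1, 3.90, 4.91, 5.77 and 6.77 CPM in replicate 3 and 3.98, 4.26, 5.71 and 7.52 CPM in replicate 4. Each replicate 2 value lay above all 3 others of its gate, and the lowest value of replicate 2 also lay above every gated value of the other replicates. The mean over the 4 gates was 11.3 ± 2.31 CPM in replicate 2, against 5.20 ± 0.720, 5.34 ± 1.22 and 5.37 ± 1.62 CPM in replicates 1, 3 and 4 (SD over 4 gates). In bulk RNA a larger share of expressing cells and more RNA per expressing cell cannot be told apart.

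IFI6 (ENSG00000126709, chromosome 1 from 27666061 to 27672218) codes for a small membrane protein of the endoplasmic reticulum and mitochondria that restricts flaviviruses. IFI6 was at 19.3, 21.9, 24.97 and 21.3 CPM in replicate 2 from low to high dye, against 7.20, 7.64, 10.7 and 10.9 CPM in replicate 1, 9.15, 9.14, 11.9 and 14.5 CPM in replicate 3 and 9.31, 9.44, 11.9 and 10.9 CPM in replicate 4. No value of replicate 2 overlapped those of the others. IFI44L (ENSG00000137959, chromosome 1 from 78619922 to 78646145), a gene widely used in blood signatures of interferon exposure, split the replicates further. IFI44L had 9.92, 10.3, 11.3 and 12.2 CPM in replicate 2, against 4.51, 3.64, 4.88 and 6.77 CPM in replicate 1, 2.37, 2.11, 2.82 and 3.36 CPM in replicate 3 and 2.82, 2.56, 2.98 and 3.16 CPM in replicate 4. Replicate 1 was thus intermediate, above replicates 3 and 4 in all 4 gates.

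MX1 (ENSG00000157601, chromosome 21 from 41420304 to 41459214), a dynamin-like GTPase that traps viral nucleocapsids, was scarce and had 1.37, 1.62, 2.53 and 2.37 CPM in replicate 2, against 0.438, 0.316, 0.951 and 0.642 CPM in replicate 1, 0.320, 0.614, 0.815 and 0.959 CPM in replicate 3 and 0.918, 0.914, 0.952 and 0.919 CPM in replicate 4. All 4 values of replicate 2 exceeded every value of the others. The OAS enzymes make oligoadenylates, an antiviral second messenger, when they bind double-stranded RNA. OAS3 (ENSG00000111331, chromosome 12 from 112938352 to 112973249) stood at 12.7, 10.7, 9.99 and 8.77 CPM in replicate 2 from low to high dye, against 5.13, 4.53, 3.99 and 3.74 CPM in replicate 1, 8.70, 5.73, 3.76 and 2.94 CPM in replicate 3 and 5.57, 3.53, 3.87 and 5.68 CPM in replicate 4. OAS2 (ENSG00000111335, chromosome 12 from 112978395 to 113011723) had 0.967, 1.27, 1.12 and 1.18 CPM in replicate 2, against 0.438, 0.158, 0.190 and 0.525 CPM in replicate 1, 0.128, 0.205, 0.690 and 0.480 CPM in replicate 3 and 0.184, 0.122, 0.190 and 0.517 CPM in replicate 4. Replicate 2 was the highest in every gate for both genes, and most OAS2 values of the others were near the floor set by 3 counts.

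**Figure D1:**
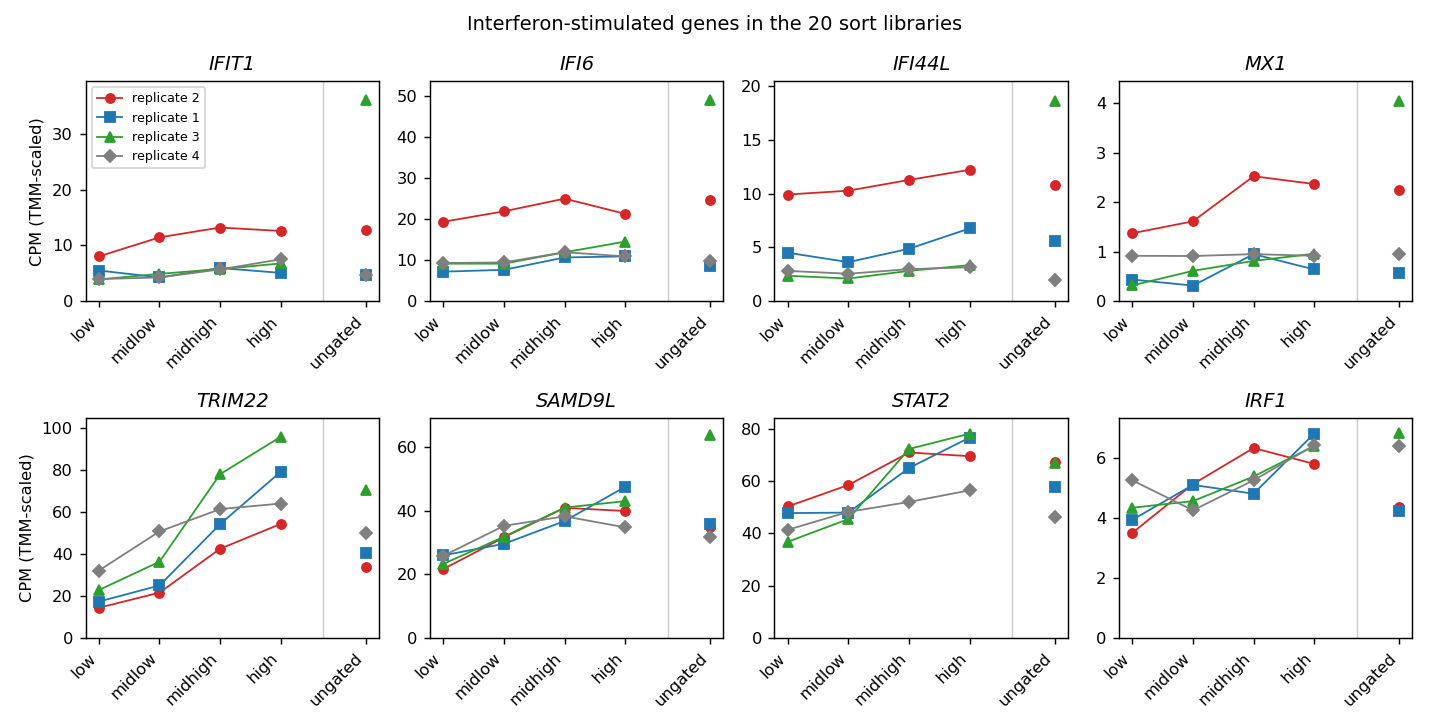
Level in CPM (vertical) of 8 members in the 20 sort libraries, by gate from low to high dye with the ungated library at the right, 1 point per library, joined by replicate. For IFIT1, IFI6, IFI44L and MX1 the replicate 2 points lie above the others in each gate and the library labelled ungated replicate 3 lies above all points, while TRIM22, SAMD9L, STAT2 and IRF1 climb with the dye.

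Fitted as the difference between replicate 2 and the mean of the other 3 replicates, with the gate as a term, 21 of the 36 tested members differed over the 20 libraries, 17 of them higher and 4 lower in replicate 2 (edgeR quasi-likelihood test, Benjamini-Hochberg adjusted p under 0.05). The same held for 30.7% of all 14592 genes, 14.7% of all genes being higher. The members' median log2 fold change was 0.41, against 0.01 over all genes. Over the 16 gated libraries, which leave out all ungated ones, 25 members differed, 21 higher and 4 lower (background 29.2%, with 14% higher), and the median was 0.49. Without the library labelled ungated replicate 3 alone, 29 differed, 25 higher and 4 lower (background 32.9%). Without midlow dye replicate 2 or midhigh dye replicate 2 the count over the remaining libraries was 12 and 13. Calls over all genes fell as well, to 3475 without midhigh dye replicate 2, against 4476 over 20 libraries. Replicate 2 was the highest of the 4 replicates in all 4 gates for 12 of the 36 members, against 5.4% of all genes, and the lowest in all 4 for TRIM22 alone (background 6.44%). No member was highest in all 4 gates in replicate 1, 3 or 4 (background 5.07%, 4.69% and 4.32%). In these replicate fits the libraries that share a number served as the repeats, and replicate 2 is a single replicate. Their standard errors and p-values thus measure scatter between libraries within a number, not variation between replicates.

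IFI44L was higher in replicate 2 by a log2 fold change of 1.43 ± 0.26 (SE; adjusted p = 0.00029) over 20 libraries and 1.71 ± 0.09 (SE; adjusted p = 3.4e-10) over the 16 gated ones. For IFI6 the values were 0.96 ± 0.20 (SE; adjusted p = 0.0011) over 20 libraries and 1.11 ± 0.08 (SE; adjusted p = 6.9e-09) over the gated ones. IFIT1 gave 0.87 ± 0.27 (SE; adjusted p = 0.02) and, over the gated libraries, 1.10 ± 0.11 (SE; adjusted p = 4.5e-07). MX1 gave 1.22 ± 0.27 (SE; adjusted p = 0.0019) and 1.45 ± 0.20 (SE; adjusted p = 2e-05) over the same library sets, and OAS3 1.00 ± 0.19 (SE; adjusted p = 0.00048) and 1.16 ± 0.14 (SE; adjusted p = 4.9e-06). IFI44, whose protein is related to that of IFI44L, rose by 1.14 ± 0.08 (SE; adjusted p = 5.3e-09) over the gated libraries. OAS2 rose by 1.86 ± 0.31 (SE; adjusted p = 0.00017) there. The IFIT genes lie side by side and resemble each other, as do the OAS genes, so reads between members of these families are uncertain.

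Among the IFIT family, IFIT3 and IFIT2 (ENSG00000119922, chromosome 10 from 89283694 to 89309276), RNA-binding partners of IFIT1, did not pass over 20 libraries and passed over the gated ones, with log2 fold changes of 0.44 ± 0.11 (SE; adjusted p = 0.0044) for IFIT3 and 0.57 ± 0.18 (SE; adjusted p = 0.023) for IFIT2. Without the library labelled ungated replicate 3 alone both passed as well, at 0.46 ± 0.09 (SE; adjusted p = 0.00042) and 0.53 ± 0.15 (SE; adjusted p = 0.01). IFIT2 had 3.87, 7.59, 6.17 and 5.598 CPM in replicate 2 from low to high dye, against 3.69, 3.11, 3.99 and 4.90 CPM in replicate 1, 1.92, 3.14, 5.71 and 6.89 CPM in replicate 3 and 2.02, 3.78, 5.20 and 3.44 CPM in replicate 4. Its replicates overlapped in the high dye gate, where replicate 3 was the highest. IFIT5, which binds RNA with a 5′ triphosphate, did not pass over 20 libraries or over the gated ones, where it gave 0.15 ± 0.06 (SE; adjusted p = 0.066), and passed without the library labelled ungated replicate 3, at 0.17 ± 0.05 (SE; adjusted p = 0.017).

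The ISG15 system attaches ISG15, a ubiquitin-like modifier, to other proteins through the enzymes UBE2L6 and HERC5, and USP18 removes it. ISG15 (ENSG00000187608, chromosome 1 from 1001138 to 1014540) had 10.4, 14.4, 19.2 and 15.1 CPM in replicate 2 from low to high dye, against 6.01, 8.22, 10.5 and 10.9 CPM in replicate 1, 9.40, 11.2, 17.8 and 16.8 CPM in replicate 3 and 6.55, 8.90, 11.4 and 12.2 CPM in replicate 4. Replicates 2 and 3 were both above replicates 1 and 4 in every gate, and in the high dye gate replicate 3 was the highest. UBE2L6 (ENSG00000156587, chromosome 11 from 57551656 to 57568284), the E2 enzyme of the pathway, had 1.88, 3.03, 2.41 and 3.28 CPM in replicate 2, against 1.38, 1.53, 1.97 and 1.52 CPM in replicate 1, 0.896, 2.25, 1.44 and 2.58 CPM in replicate 3 and 1.84, 1.46, 1.84 and 3.33 CPM in replicate 4. ISG15 rose in replicate 2 by a log2 fold change of 0.39 ± 0.14 (SE; adjusted p = 0.041) over 20 libraries and 0.48 ± 0.07 (SE; adjusted p = 6.1e-05) over the gated ones, and UBE2L6 by 0.55 ± 0.18 (SE; adjusted p = 0.031) over the gated ones. HERC6, a relative of HERC5, rose by 0.81 ± 0.12 (SE; adjusted p = 6.1e-05) there. HERC5 and USP18 did not pass this test.

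Of the signalling proteins and sensors, IFIH1 (the double-stranded RNA sensor MDA5) rose in replicate 2 by 0.94 ± 0.13 (SE; adjusted p = 2.9e-05) over the gated libraries and IRF7, a transcription factor that drives interferon genes, by 0.30 ± 0.08 (SE; adjusted p = 0.012). STAT2 passed over 20 libraries, at 0.20 ± 0.07 (SE; adjusted p = 0.032), and not over the gated ones, at 0.18 ± 0.08 (SE; adjusted p = 0.076). IRF1 gave −0.01 ± 0.11 (SE; adjusted p = 0.95) over the gated libraries. IRF9 (ENSG00000213928, chromosome 14 from 24161053 to 24166565), the DNA-binding part of ISGF3, was scarce, with 0.916, 0.930, 2.17 and 0.915 CPM in replicate 2 from low to high dye, against 0.438, 0.843, 0.761 and 0.7004 CPM in replicate 1, 0.896, 0.409, 0.878 and 1.20 CPM in replicate 3 and 0.857, 0.487, 0.571 and 0.804 CPM in replicate 4. Its replicates overlapped, and its difference did not pass over 20 libraries or the gated ones. Without the library labelled ungated replicate 3 it passed at 0.67 ± 0.25 (SE; adjusted p = 0.044), and so did DHX58 at 0.65 ± 0.22 (SE; adjusted p = 0.028) and STAT2 at 0.21 ± 0.07 (SE; adjusted p = 0.015). Of the exon bases of IRF9, 48.4% are shared with another annotated gene, from which unstranded reads cannot be told apart.

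A smaller group ran the other way. IFITM2, IFITM3, SAMD9 and TRIM22 were lower in replicate 2. IFITM2 (ENSG00000185201, chromosome 11 from 307631 to 315272), a paralog of IFITM3 with the same role, had 9.21, 11.3, 11.7 and 10.8 CPM in replicate 2 from low to high dye and 10.3, 10.1, 9.38 and 9.34 CPM in replicate 1, against 16.6, 18.6, 16.3 and 16.8 CPM in replicate 3 and 16.1, 14.9, 18.02 and 17.5 CPM in replicate 4. For this gene replicates 1 and 2 together lay below replicates 3 and 4 with no overlap. IFITM3 (ENSG00000142089, chromosome 11 from 319669 to 327537) had 46.7, 56.0, 64.7 and 60.0 CPM in replicate 2 and 42.1, 51.2, 63.1 and 60.1 CPM in replicate 1, against 60.7, 72.1, 84.6 and 95.0 CPM in replicate 3 and 61.8, 63.8, 76.6 and 79.6 CPM in replicate 4. Within every gate the order was the same, with replicates 1 and 2 below replicates 3 and 4. The log2 fold change of replicate 2 against the others was −0.42 ± 0.07 (SE; adjusted p = 8.9e-05) for IFITM2, −0.24 ± 0.05 (SE; adjusted p = 0.0019) for IFITM3, −0.65 ± 0.11 (SE; adjusted p = 0.00019) for TRIM22 and −0.28 ± 0.09 (SE; adjusted p = 0.02) for SAMD9 over 20 libraries. All 4 also passed without the library labelled ungated replicate 3, at −0.41, −0.21, −0.62 and −0.23 in the same order. Of the exon bases of IFITM2 and IFITM3, 22.7% and 21.3% are shared with other annotated genes, so their values are in part uncertain.

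IFITM1 (ENSG00000185885, chromosome 11 from 313506 to 315272) overlaps IFITM2, with 32.5% of its exon bases shared, and its values are uncertain for that reason. It had 0.967, 0.881, 0.764 and 0.915 CPM in replicate 2 from low to high dye, against 0.313, 0.369, 0.571 and 0.292 CPM in replicate 1, 0.256, 0.546, 0.565 and 0.719 CPM in replicate 3 and 0.306, 0, 0.190 and 1.09 CPM in replicate 4. It passed over the gated libraries with a log2 fold change of 1.06 ± 0.38 (SE; adjusted p = 0.043) and not over 20 libraries. EPSTI1 (ENSG00000133106, chromosome 13 from 42886388 to 42992271), an interferon-induced gene first described in breast cancer, had 4.07, 3.18, 3.29 and 3.50 CPM in replicate 2, against 1.19, 0.896, 1.14 and 1.28 CPM in replicate 1, 1.92, 2.66, 2.95 and 2.04 CPM in replicate 3 and 1.41, 1.77, 2.22 and 2.24 CPM in replicate 4. Replicate 2 was the highest and replicate 1 the lowest in every gate. EPSTI1 rose in replicate 2 by 1.03 ± 0.15 (SE; adjusted p = 4.3e-05) over the gated libraries, PARP14 by 0.46 ± 0.05 (SE; adjusted p = 4.1e-06), PARP9 by 0.44 ± 0.07 (SE; adjusted p = 7.7e-05) and DDX60 by 0.45 ± 0.10 (SE; adjusted p = 0.0018).

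Several members were too scarce to place. IFI27 (ENSG00000165949, chromosome 14 from 94104836 to 94116698), a mitochondrial protein whose transcript is among the most induced in virus-infected people, had 1.02, 1.52, 1.94 and 1.02 CPM in replicate 2 from low to high dye, against 1.38, 1.27, 0.888 and 0.7004 CPM in replicate 1, 0.320, 0.478, 0.815 and 0.839 CPM in replicate 3 and 0.796, 0.731, 1.27 and 1.78 CPM in replicate 4. ISG20 (ENSG00000172183, chromosome 15 from 88636153 to 88656483), an exonuclease for single-stranded RNA, had 1.73, 1.27, 1.47 and 0.538 CPM in replicate 2, against 1.31, 1.27, 1.20 and 0.7004 CPM in replicate 1, 1.28, 1.501, 1.38 and 2.40 CPM in replicate 3 and 1.35, 0.975, 0.952 and 1.66 CPM in replicate 4. Neither differed by the replicate 2 test, and their replicates overlapped. BST2 (ENSG00000130303, chromosome 19 from 17402939 to 17405648), or tetherin, which holds budding virions at the cell surface, had 0.509, 0.489, 0.470 and 0.215 CPM in replicate 2, against 0, 0.211, 0.127 and 0.117 CPM in replicate 1, 0.192, 0.0682, 0.0627 and 0.120 CPM in replicate 3 and 0.0612, 0.183, 0.0635 and 0.517 CPM in replicate 4. OAS1 (ENSG00000089127, chromosome 12 from 112906777 to 112933222) had 0.102, 0.538, 0.705 and 0.484 CPM in replicate 2, against 0.0626, 0.158, 0 and 0.292 CPM in replicate 1, 0.0640, 0.205, 0.314 and 0.420 CPM in replicate 3 and 0.490, 0.366, 0.444 and 0.230 CPM in replicate 4. BST2 and OAS1 were not tested, and many of their values were at or under the floor of 3 counts.

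The other replicates showed fewer called members. These contrasts are not independent of the one for replicate 2, because the mean of the other 3 replicates includes replicate 2 in each. Over the gated libraries IFIT1 was called lower in replicates 1, 3 and 4. Its means over the gates were 5.20, 5.34 and 5.37 CPM there, against 11.3 CPM in replicate 2. In replicate 1 against the other 3, 9 members differed over 20 libraries, all lower (background 24.3%), and 14 over the gated ones, again all lower (22.3%). Without ungated replicate 1 there were 5, and the fits without 1 library called 2738 to 3857 genes in all. Leaving out the library labelled ungated replicate 3 gave 13, 1 higher and 12 lower (26%). The 9 included EPSTI1 at −1.32 ± 0.26 (SE; adjusted p = 0.00061), MX1 at −1.21 ± 0.35 (SE; adjusted p = 0.014) and IFI6 at −0.82 ± 0.23 (SE; adjusted p = 0.013) over 20 libraries. These 3 passed at −1.14, −0.92 and −0.62 when that library was left out. ISG15, PARP9 and EPSTI1 were lowest in replicate 1 in all 4 gates (background 3.86%). IFI44 was the lowest in all 4 gates in replicate 3 and IRF7 in replicate 4 (background 4.08% and 4.11%). In replicate 3, 6 members differed over 20 libraries, all higher (background 25.1%), whereas over the gated libraries 4 were higher (ISG15, IFITM2, IFITM3 and TRIM22) and 5 lower (IFI44L, IFI27, IFI44, IFIT1 and PARP14; background 24.8%). IFI44L fell in replicate 3 by a log2 fold change of 1.01 ± 0.12 (SE; adjusted p = 4.5e-06) over the gated libraries. Without the library labelled ungated replicate 3 there were 9, again 4 higher and 5 lower (25.2%). In replicate 4, 10 differed over 20 libraries, 3 higher and 7 lower (background 26.7%), among them IFI44L at −1.28 ± 0.33 (SE; adjusted p = 0.0068), and 10 over the gated ones (23.7%). Over the gated libraries IFI44L gave −0.86 ± 0.11 (SE; adjusted p = 2.4e-05), a smaller difference than over 20 libraries. Without ungated replicate 4 there were 5, and without the library labelled ungated replicate 3 there were 15, 5 higher and 10 lower (27.5%), with IFI44L at −0.97 ± 0.11 (SE; adjusted p = 1.2e-06).

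As a whole, a term for the replicate was past the threshold for 22 of the 36 members over 20 libraries (background 51.4%), 24 over the 16 gated libraries (47.2%) and 30 without the library labelled ungated replicate 3 (51.8%). Expressed as shares of the sum of squares of log2 CPM over the 16 gated libraries, the replicate took a median of 50.03% of a member's variation and the gate 16.5%, against medians of 36.0% and 25.7% over all tested genes. The replicate share exceeded the gate share for 26 of the 36 members, and for 58.6% of all genes. IFI44 and IFI44L stood at one end, with 95.4% and 93.3% of their variation between replicates. SAMD9L, TRIM22, STAT2 and IRF1 stood at the other, with 87.6%, 76.5%, 71.1% and 69.3% between gates. Over all 20 libraries the medians were 36.9% for the replicate and 21.2% for the gate, against 33.1% and 24.7% over all genes.

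**Figure D2:**
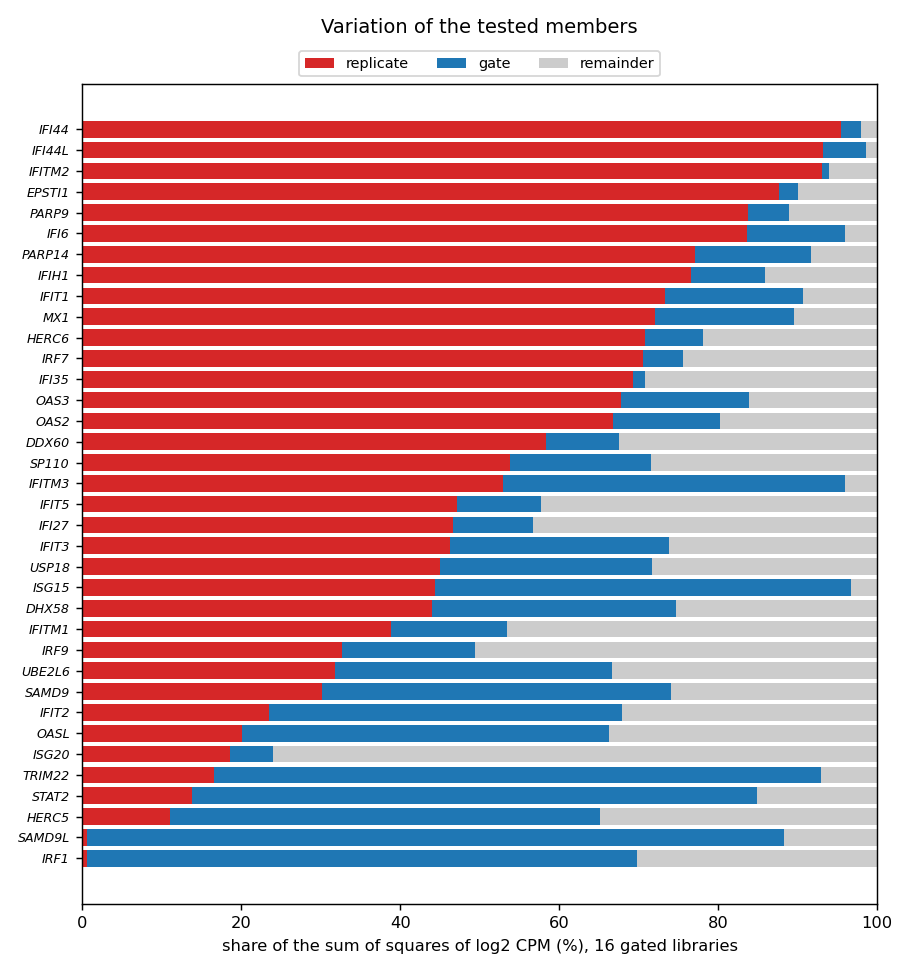
Share of the variation of log2 CPM that lies between replicates, between gates and in the rest, in percent, for each tested member over the 16 gated libraries. IFI44 and IFI44L are almost wholly replicate (95.4% and 93.3%), and SAMD9L is mostly gate (87.6%).

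Between gates, fewer members were called in fits without the replicate number, whereas the replicate fits above included the gate. With the replicate number as a block more were called, as given below. TRIM22, SAMD9L, STAT2, HERC5 and IRF1 were higher in high dye than in low dye cells, by log2 fold changes of 0.58 to 1.76, and in none of them did the 2 gates overlap. TRIM22 (ENSG00000132274, chromosome 11 from 5689689 to 5737089) is an antiviral E3 ligase of the tripartite motif family. TRIM22 had 17.3, 14.3, 22.8 and 32.0 CPM in low dye replicates 1 to 4, 24.9, 21.5, 36.2 and 50.6 CPM in midlow, 54.1, 42.4, 77.8 and 61.2 CPM in midhigh and 79.0, 54.2, 95.6 and 63.9 CPM in high dye cells. Its level climbed from each gate to the next in every replicate. It averaged 73.2 ± 18.1 CPM over the high dye and 21.6 ± 7.77 CPM over the low dye libraries (SD, n = 4 each), a log2 fold change of 1.76 ± 0.30 (SE; adjusted p = 0.0013) by edgeR's quasi-likelihood test.

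SAMD9L (ENSG00000177409, chromosome 7 from 93130055 to 93148369), a restriction factor for poxviruses that slows cell growth, had 26.0, 21.7, 23.3 and 25.8 CPM in low dye replicates 1 to 4, 29.6, 31.7, 31.9 and 35.3 CPM in midlow, 36.8, 40.9, 41.0 and 38.3 CPM in midhigh and 47.6, 39.9, 43.0 and 34.8 CPM in high dye cells. All midlow values lay above all low dye values, and the midhigh and high dye values overlapped. It averaged 41.3 ± 5.37 CPM over the high dye and 24.2 ± 2.09 CPM over the low dye libraries, a log2 fold change of 0.77 ± 0.16 (SE; adjusted p = 0.0039). STAT2 (ENSG00000170581, chromosome 12 from 56341597 to 56360155) had 47.8, 50.3, 36.8 and 41.4 CPM in low dye replicates 1 to 4, 48.0, 58.5, 45.5 and 48.3 CPM in midlow, 65.1, 71.0, 72.3 and 52.0 CPM in midhigh and 76.7, 69.5, 78.2 and 56.5 CPM in high dye cells. High and low dye values did not overlap, and the log2 fold change was 0.67 ± 0.14 (SE; adjusted p = 0.0036).

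IRF1 (ENSG00000125347, chromosome 5 from 132481609 to 132490798), a transcription factor of the interferon response, had 3.94, 3.51, 4.35 and 5.27 CPM in low dye replicates 1 to 4, 5.11, 5.14, 4.57 and 4.26 CPM in midlow, 4.82, 6.34, 5.39 and 5.27 CPM in midhigh and 6.83, 5.81, 6.42 and 6.43 CPM in high dye cells. Its log2 fold change was 0.58 ± 0.16 (SE; adjusted p = 0.02), and 22.0% of its exon bases are shared with other annotated genes, among them its antisense partner. HERC5 (ENSG00000138646, chromosome 4 from 88457117 to 88506163), the main ligase for ISG15, averaged 3.16 ± 0.285 CPM over the high dye and 1.78 ± 0.277 CPM over the low dye libraries, a log2 fold change of 0.83 ± 0.22 (SE; adjusted p = 0.016). These 5 were all the calls among the 36 members, against 17.7% of all genes called, 9.39% called higher and 8.35% called lower. The members' median log2 fold change was 0.34, and 0.01 over all genes. All 4 high dye libraries lay above all 4 low dye libraries for 7 members, the 5 named with ISG15 and OASL (background 9.61%), and for none did they lie below (background 9.37%). Without the library labelled ungated replicate 3, which shares the fit, ISG15 joined the calls at 0.76 ± 0.25 (SE; adjusted p = 0.046), and without low dye replicate 2 only 3 members were called. Over all genes the fits without 1 library called 1255 to 2965.

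With the replicate number as a block, 11 members differed between high and low dye, all higher (background 37.2%, with 19.8% higher). The 6 added were IFIT2, IFITM3, ISG15, OASL, SAMD9 and UBE2L6. With the block and without the library labelled ungated replicate 3, an alternative added after seeing the data, 18 differed, 16 higher and 2 lower (39.1%, with 20.8% higher and 18.3% lower). IFIT1 was then called at 0.57 ± 0.15 (SE; adjusted p = 0.0034) and IFI6 at 0.39 ± 0.10 (SE; adjusted p = 0.0042), and the 2 lower were OAS3 and USP18. ISG15 averaged 13.7 ± 2.68 CPM over the high dye and 8.10 ± 2.15 CPM over the low dye libraries, with a blocked log2 fold change of 0.77 ± 0.21 (SE; adjusted p = 0.0057), and IFITM3 averaged 73.7 ± 17.0 CPM over the high dye and 52.8 ± 9.90 CPM over the low dye libraries, with 0.47 ± 0.07 (SE; adjusted p = 4.4e-05). OASL (ENSG00000135114, chromosome 12 from 121019111 to 121039242), an OAS relative without the enzyme activity, had 0.501, 0.560, 0.256 and 0 CPM in low dye replicates 1 to 4, 0.791, 1.57, 0.341 and 0.731 CPM in midlow, 0.698, 0.999, 1.00 and 0.381 CPM in midhigh and 0.759, 0.969, 1.56 and 1.03 CPM in high dye cells. High and low dye did not overlap, and the blocked log2 fold change was 1.69 ± 0.53 (SE; adjusted p = 0.015), against 1.66 ± 0.62 (SE; adjusted p = 0.071) without the block. A gate term over all 5 sort groups was past the threshold for SAMD9L, STAT2 and TRIM22 (background 7.11%), for 7 members with the block (28.8%), and for 12 with the block and without the library labelled ungated replicate 3 (30.1%). Without low dye replicate 3 that term called 1 member, and the fits without 1 library called 547 to 1406 genes in all.

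Fitted as an equal step per gate over the 16 gated libraries, 8 members rose with the dye and none fell (background 26.2%, with 14% higher). They were TRIM22 at 0.61 ± 0.09 (SE; adjusted p = 0.0003), ISG15 at 0.27 ± 0.08 (SE; adjusted p = 0.017), SAMD9L at 0.26 ± 0.03 (SE; adjusted p = 0.00011), STAT2 at 0.24 ± 0.04 (SE; adjusted p = 0.00065), HERC5, IRF1, IFITM3 and SAMD9, all as log2 per gate. Without high dye replicate 3 or without low dye replicate 2 the trend called 5. With the replicate block 18 rose and 2 fell (background 43.8%, with 23.1% higher and 20.7% lower). IFIT1 then rose by 0.20 ± 0.04 (SE; adjusted p = 0.0011) per gate, IFI6 by 0.15 ± 0.03 (SE; adjusted p = 0.0014), IFI44L by 0.15 ± 0.04 (SE; adjusted p = 0.0079) and MX1 by 0.26 ± 0.09 (SE; adjusted p = 0.023). The step of IFIT1 was small beside the difference of 1.10 ± 0.11 (SE; adjusted p = 4.5e-07) between replicate 2 and the others.

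The 2 members that fell with the dye in the blocked fit were OAS3 and USP18. OAS3 averaged 8.03 ± 3.50 CPM in low dye, 6.12 ± 3.17 CPM in midlow, 5.40 ± 3.06 CPM in midhigh and 5.28 ± 2.60 CPM in high dye cells (SD, n = 4 each), a blocked step of −0.20 ± 0.06 (SE; adjusted p = 0.0085). Its highest gate was low dye in replicates 1, 2 and 3, and high dye in replicate 4. USP18 (ENSG00000184979, chromosome 22 from 18149899 to 18177397), which removes ISG15 and also damps the interferon receptor, had 4.20, 4.93, 4.35 and 5.14 CPM in low dye replicates 1 to 4, 3.16, 5.43, 4.57 and 4.51 CPM in midlow, 3.23, 4.82, 2.20 and 4.44 CPM in midhigh and 2.04, 3.50, 2.64 and 5.28 CPM in high dye cells. The low dye values lay within a narrow range and the high dye values spread widely, and the blocked step was −0.18 ± 0.06 (SE; adjusted p = 0.017). Neither passed without the block.

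**Figure D3:**
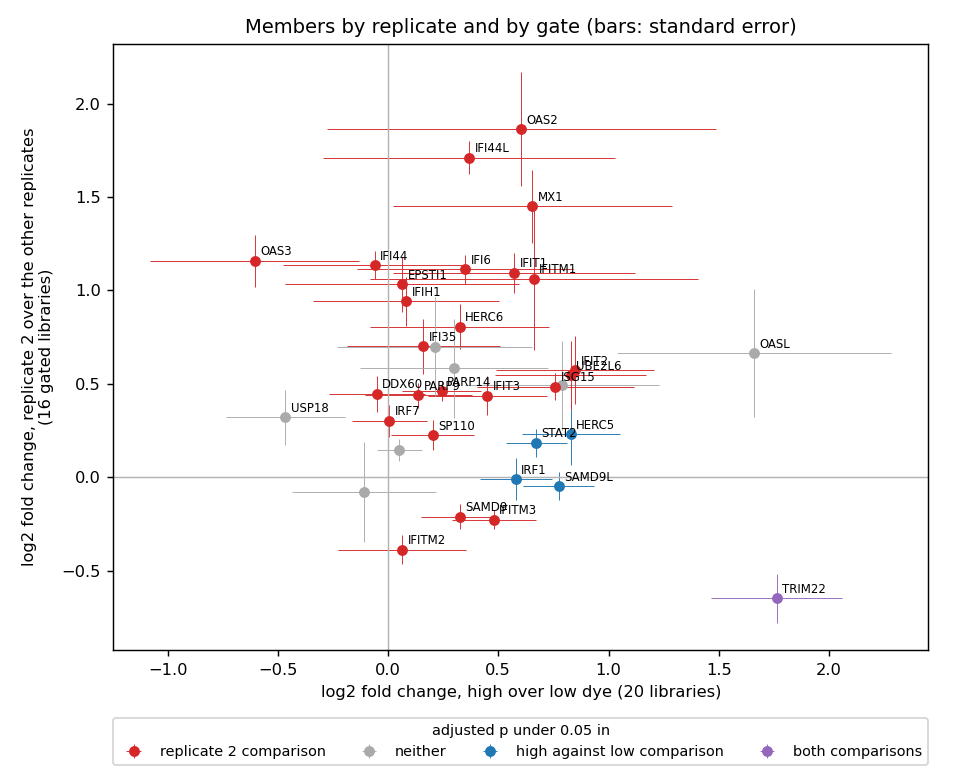
Each tested member by its log2 fold change of high over low dye (horizontal, 20 libraries) and of replicate 2 over the other replicates (vertical, 16 gated libraries), with standard errors as bars and colour for the calls. The gate fit shown has no replicate block. IFI44L, IFI6 and MX1 are called for the replicate alone, SAMD9L, STAT2, IRF1 and HERC5 for the gate alone, and TRIM22 for both, in opposite directions. With the block IFI44L, IFI6 and MX1 were also called in the trend over the gates.

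Some fibroblast markers were called between gates as well. Their summed level was 21559 to 29654 CPM over the high dye libraries and 17480 to 19149 CPM over the low dye ones, and 4 of the 10 were called, all higher in high dye (background 17.7%). FN1, the most abundant of them, averaged 16072 ± 2786 CPM over the high dye and 11076 ± 501 CPM over the low dye libraries. VIM averaged 2098 ± 265 CPM over the high dye and 2489 ± 127 CPM over the low dye libraries, and PDGFRA 11.7 ± 5.41 and 16.8 ± 6.85 CPM, neither called without the block. With the block 9 of the 10 were called, 7 higher and 2 lower, the lower being VIM and PDGFRA (37.2%). The 10 leukocyte markers summed to 0.538 to 1.68 CPM over the high dye libraries and 0.153 to 0.796 CPM over the low dye ones. All but PTPRC were at or near the floor in these gates. PTPRC, at 0 to 1.20 CPM over all libraries, was the only one tested. With the block it was called higher in high dye, by 1.58 on the log2 scale (37.2%). For replicate 2 against the others, 5 of the 10 fibroblast markers were called, 4 higher and 1 lower (background 30.7%). The 1 leukocyte marker that could be tested was lower. The part of the fibroblast markers in these results was not tested.

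Ungated cells of replicates 1, 2 and 4 stood close to their own gates, and those labelled replicate 3 did not. The library labelled ungated replicate 3 was above all 4 gates of its replicate for 33 of the 36 members (background 23.2%) and below all for none (background 21.3%). The median member was higher by 1.11 on the log2 scale, with a range of −0.18 to 3.01. In ungated replicates 1, 2 and 4, the members above all 4 of their own gates numbered 10, 4 and 1 (background 16.1%, 14.7% and 12.5%), those below 5, 5 and 6 (16.6%, 14% and 12.1%), and the medians were 0.07, 0.08 and 0.01.

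IFIT1 was at 36.0 CPM in the library labelled ungated replicate 3, against 5.34 ± 1.22 CPM over its own gates, a ratio of 6.74, while ungated replicates 1, 2 and 4 had 4.64, 12.8 and 4.62 CPM. IFI44L was at 18.7 CPM, against 2.67 ± 0.546 CPM over its gates (ratio 7.001) and 5.61, 10.8 and 1.96 CPM in ungated replicates 1, 2 and 4. These values exceeded even those of replicate 2. MX1 was at 4.05 CPM, against 0.572, 2.24 and 0.948 CPM in the other ungated libraries, and IFI6 at 48.9 CPM, against 8.47, 24.5 and 9.84 CPM. ISG15 was at 36.4 CPM, against 8.70, 15.98 and 9.95 CPM, OAS3 at 14.6 CPM, against 3.66, 8.44 and 4.15 CPM, and OAS2 at 3.45 CPM, against 0.343, 0.534 and 0.296 CPM. OAS1 reached 2.39 CPM, against 0.114, 0.214 and 0.474 CPM.

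Membrane proteins and members called between gates were above the mean of their own gates in the library labelled ungated replicate 3, by unequal factors. STAT2 and TRIM22 lay within the range of those gates, at 36.8 to 78.2 and 22.8 to 95.6 CPM, and STAT2 lay below ungated replicate 2. IFITM3 had 101 CPM, against 53.0, 60.2 and 70.6 CPM in ungated replicates 1, 2 and 4, IFITM2 19.5 CPM, against 9.27, 10.05 and 17.7 CPM, and IFITM1 2.19 CPM, against 0.0572, 0.855 and 0.533 CPM. TRIM22 had 70.4 CPM, against 40.4, 33.7 and 49.7 CPM, STAT2 66.8 CPM, against 57.9, 67.3 and 46.3 CPM, and IRF1 6.84 CPM, against 4.24, 4.38 and 6.40 CPM. Against the mean of the gates of replicate 3, the ratios were 1.30 for IFITM3, 1.14 for IFITM2 and 4.20 for IFITM1. For TRIM22, STAT2, IRF1, HERC5 and SAMD9L they were 1.21, 1.15, 1.32, 1.26 and 1.84. The remaining genes followed at low levels. EPSTI1 had 8.17 CPM, against 1.20, 3.05 and 2.19 CPM, IFIT2 12.9 CPM, against 4.92, 6.41 and 4.68 CPM, and UBE2L6 3.85 CPM, against 1.83, 3.05 and 1.30 CPM. OASL had 2.19 CPM, against 0.343, 1.23 and 0.652 CPM, USP18 5.25 CPM, against 2.92, 4.17 and 4.03 CPM, and IFI27 1.86 CPM, against 0.916, 1.34 and 1.13 CPM. ISG20, at 1.39 CPM against 1.32, 1.496 and 1.30 CPM, lay within the range of the others, and IRF9, at 1.66 CPM against 1.14, 1.12 and 0.355 CPM, and BST2, at 0.730 CPM against 0.114, 0.321 and 0.0592 CPM and a ratio of 6.60 to its gates, lay above it.

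The summed level of the members was 935 CPM in the library labelled ungated replicate 3 and 389 to 627 CPM in the other 19 sort libraries. It was 883 CPM in the DMSO library, which that library resembled most over all genes. The sort and drug sets were scaled separately, so levels set across them are only side by side.

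**Figure D4:**
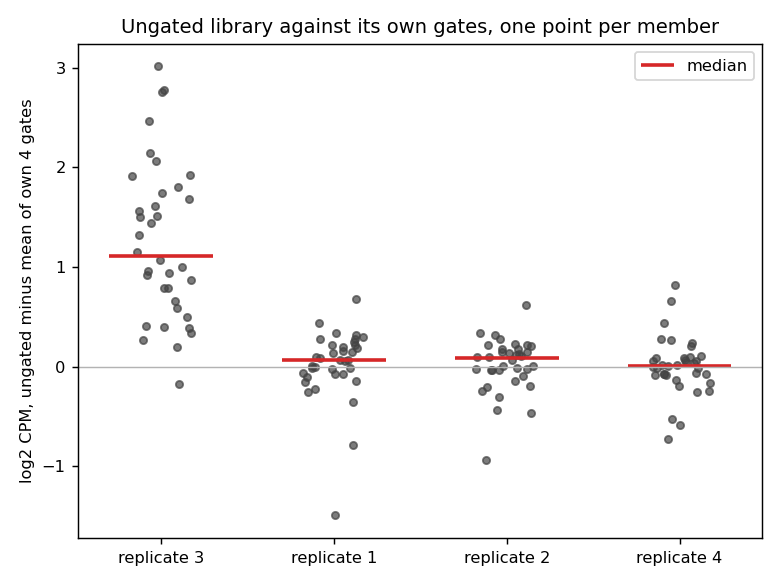
Log2 CPM of the ungated library minus the mean of the 4 gates of its own replicate, one point per tested member, with the median as a line. The median is 1.11 in the library labelled ungated replicate 3 and 0.07, 0.08 and 0.01 in replicates 1, 2 and 4.

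In the drug set, LSD1 inhibition was compared with the DMSO and no drug libraries, 2 against 2. Most members were lower with LSD1 inhibition than in the DMSO library, but the DMSO library was itself high for many of them. None passed the test without the replicate number as a block, and 17 did with it. IFIT1 had 8.03 and 4.94 CPM with LSD1 inhibition, against 28.2 CPM with DMSO and 11.5 CPM with no drug. MX1 had 0.835 and 0.750 CPM with LSD1 inhibition, against 4.03 and 2.05 CPM with DMSO and no drug. OASL had 0.771 and 0.375 CPM, against 3.10 and 1.61 CPM in the same controls. In all 3 genes both LSD1 inhibition libraries lay below both controls. The log2 fold change was −1.60 ± 0.44 (SE; adjusted p = 0.39) for IFIT1, −1.92 ± 0.43 (SE; adjusted p = 0.24) for MX1 and −2.02 ± 0.50 (SE; adjusted p = 0.31) for OASL.

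Without the block none of the 36 members passed edgeR's quasi-likelihood test (background 0.114%, 16 genes, all higher), and 9 members had an unadjusted p under 0.05. The 0.114% refers to the adjusted p. The share of all genes under the unadjusted limit is not given here, so the 9 is a bare count. DESeq2 called 1 member, IFIT1. With the replicate number as a block 17 members were called, all lower (background 16%, with 9.1% higher and 6.91% lower), among them IFIT1 at −1.58 ± 0.13 (SE; adjusted p = 6.6e-31), MX1 at −1.91 ± 0.31 (SE; adjusted p = 6e-08), OASL at −2.02 ± 0.36 (SE; adjusted p = 8.7e-07) and OAS2 at −2.04 ± 0.40 (SE; adjusted p = 1.4e-05). That fit joins each LSD1 inhibition library to a different kind of control, DMSO in replicate 1 and no drug in replicate 2, and leaves 1 residual degree of freedom, so its spread is taken largely from all genes. The members' median log2 fold change was −0.44, against 0.00 over all genes. Both LSD1 inhibition libraries lay below both controls for 11 members (IFIT1, IFIT2, IFI6, IFI27, ISG15, MX1, OAS2, OASL, IRF7, SAMD9 and SP110; background 16.4%) and above both for IFITM2 and USP18 (background 17.7%). OAS2 had 0.450 and 0.438 CPM with LSD1 inhibition, against 2.98 and 0.807 CPM with DMSO and no drug. IFI6 had 17.4 and 15.6 CPM, against 46.1 and 18.9 CPM, and ISG15 17.7 and 18.5 CPM, against 31.5 and 20.8 CPM. For IFI6 and ISG15 the gap to the no drug library was small. Of the 17 called with the block, DDX60, HERC6, IFI44, IFI44L, IFIH1, PARP14 and PARP9 turned positive in the unblocked fit without the DMSO library. In replicate 2, IFI44L, HERC6, PARP9, PARP14 and IFI44 were above no drug, by 0.17, 0.12, 0.05, 0.03 and 0.01 on the log2 scale. The others of the 17 were below it.

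On the side of the largest positive log2 fold changes, USP18 had 6.23 and 7.44 CPM with LSD1 inhibition, against 4.78 and 5.34 CPM with DMSO and no drug. IRF1 had 8.80 and 6.56 CPM, against 6.76 and 4.97 CPM, and ISG20 1.48 and 0.813 CPM, against 0.869 and 0.931 CPM. The adjusted p of these 3 was 0.80, 0.90 and 0.97. STAT2 had 54.8 and 66.6 CPM, against 62.8 and 65.9 CPM, and TRIM22 62.8 and 77.01 CPM, against 66.1 and 82.3 CPM. Both overlapped their controls.

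The 2 controls differed from each other. DMSO was above no drug for 29 of the 36 members, by a median of 0.66 on the log2 scale, against 0.01 over all genes. It was more than 2-fold above for 11 (IFIT1, IFI6, IFI44, IFI44L, OAS2, OAS3, HERC5, HERC6, PARP9, DHX58 and IFIH1), against 1.29% of all genes. IFI44L had 10.8 and 5.19 CPM with LSD1 inhibition, against 17.9 CPM with DMSO and 4.595 CPM with no drug. OAS3 had 10.3 and 7.19 CPM with LSD1 inhibition, against 12.4 CPM with DMSO and 6.09 CPM with no drug. The LSD1 inhibition values of both genes lay between the 2 controls. Set against the control with the same replicate number, LSD1 inhibition was lower than DMSO for 30 of 36 members in replicate 1 (median −0.55). It was lower than no drug for 22 of 36 in replicate 2 (median −0.16). The medians over all genes were −0.01 and −0.001, a nearly even split, and 22 of 36 is not far from that. Without the no drug library the members' median log2 fold change was −0.78. Without the DMSO library it was 0.00029, and IFI44L gave 0.79 in place of −0.48. A lone control is taken in these fits to vary like the LSD1 inhibition pair. Vehicle and replicate number cannot be told apart in these controls.

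Of the remaining named members, IFIT2 had 7.38 and 6.38 CPM with LSD1 inhibition, against 13.0 CPM with DMSO and 10.5 CPM with no drug. IFI27 had 0.899 and 0.750 CPM with LSD1 inhibition, against 1.55 CPM with DMSO and 0.994 CPM with no drug. Both genes were lower in both LSD1 inhibition libraries than in both controls. EPSTI1 had 4.17 and 2.63 CPM with LSD1 inhibition, against 6.14 CPM with DMSO and 3.73 CPM with no drug. UBE2L6 had 3.53 and 2.88 CPM with LSD1 inhibition, against 3.85 CPM with DMSO and 2.36 CPM with no drug. Their LSD1 inhibition and control values overlapped. IFITM1 had 1.03 and 0.5001 CPM with LSD1 inhibition, against 1.24 CPM with DMSO and 0.931 CPM with no drug. IFITM2 had 21.4 and 20.8 CPM with LSD1 inhibition, against 19.2 CPM with DMSO and 20.7 CPM with no drug. IFITM3 had 95.0 and 99.4 CPM with LSD1 inhibition, against 101 CPM with DMSO and 88.2 CPM with no drug. Of these membrane proteins IFITM2 alone had both LSD1 inhibition values above both controls, by a small margin. IRF9 had 0.771 and 1.25 CPM with LSD1 inhibition, against 0.993 CPM with DMSO and 1.30 CPM with no drug. OAS1 had 0.321 and 0.313 CPM with LSD1 inhibition, against 1.68 CPM with DMSO and 0.310 CPM with no drug, and BST2 had 0.257 and 0.438 CPM with LSD1 inhibition, against 0.620 CPM with DMSO and 0.621 CPM with no drug. IRF9 overlapped its controls, OAS1 was high in DMSO alone, and BST2 was below both controls with LSD1 inhibition at levels of a few reads.

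DOT1L inhibition had 1 library and 1 DMSO library of the same number, so there is no replicate check and no test. IFITM1 was the 1 member more than 2-fold above DMSO, at 2.87 CPM with DOT1L inhibition and 1.24 CPM with DMSO (2.86% of all genes were that far above), and none was more than 2-fold below (0.743%). The log2 ratios of the members had a median of −0.08, against −0.004 over all genes, and a range of −0.64 to 1.13. Below DMSO were 21 of 36, where all genes split nearly evenly. Lowest were IFIT1, at 18.1 CPM with DOT1L inhibition and 28.2 CPM with DMSO, OASL, at 2.01 and 3.10 CPM, and IFI6, at 31.6 and 46.1 CPM in the same order. After IFITM1 the highest were ISG20, at 1.66 CPM with DOT1L inhibition and 0.869 CPM with DMSO, and UBE2L6, at 6.30 and 3.85 CPM. The DOT1L inhibition library thus carried members at levels near those of DMSO.

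**Figure D5:**
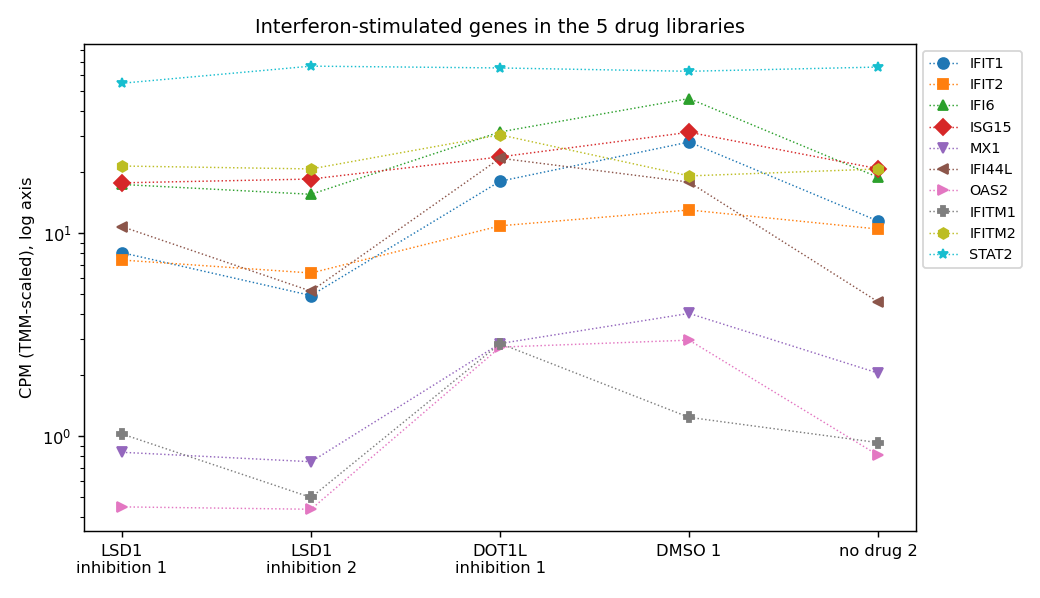
Level in CPM (log axis) of 10 members in each of the 5 drug set libraries, 1 point per library, with dotted lines joining the points of a gene. For IFIT1, IFIT2, MX1 and OAS2 both LSD1 inhibition points lie below DMSO and no drug, and for IFITM1 the DOT1L inhibition point is the highest.

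The interferons themselves were nearly silent. Of 21 listed ligand genes, 12 had no count in any of the 25 libraries, among them IFNB1, IFNG and IFNL1, 7 had 10 counts or fewer in all libraries together, and IFNE and IFNA1 had more. IFNE (ENSG00000184995, chromosome 9 from 21480839 to 21482313) codes for interferon epsilon and lies within the long noncoding gene MIR31HG with no shared exon base. IFNE had 8.90, 6.36, 9.11 and 6.08 CPM in replicate 2 from low to high dye and 6.95, 6.48, 5.45 and 4.90 CPM in replicate 1, against 3.45, 2.59, 3.32 and 3.18 CPM in replicate 3 and 3.00, 3.96, 5.01 and 2.58 CPM in replicate 4. Replicates 1 and 2 lay above replicates 3 and 4 in every gate. Against the mean of the other replicates, IFNE rose by 0.83 ± 0.12 (SE; adjusted p = 1.3e-05) in replicate 2 and by 0.46 ± 0.12 (SE; adjusted p = 0.008) in replicate 1 (edgeR). The kit does not keep strand, so reads of IFNE and of the unspliced MIR31HG transcript cannot be told apart. IFNA1, of a family of near-identical genes, rose in replicate 2 by 1.29 ± 0.28 (SE; adjusted p = 0.0014), and its assignment is uncertain too.

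Receptors, kinases and STAT proteins carry the signal into the nucleus. Of 16 listed receptor and JAK-STAT genes 14 were tested. For replicate 2, 4 of the 14 were called (30.7% of all genes), where JAK2 rose by 0.28 and SOCS3, a feedback inhibitor, by 0.16 on the log2 scale, while IFNGR1 fell by 0.35 and STAT3 by 0.26. For high against low dye, 2 of the 14 were called (17.7% of all genes), IL10RB rising by 0.45 and SOCS3 falling by 0.32, and with the block 5 rose and 2 fell (37.2%).

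Among 14 listed nucleic acid sensing genes 11 were tested. Over 20 libraries 30.7% of all genes were called for replicate 2 and 17.7% for high against low dye. Over the gated libraries replicate 2 differed for 7 of these 11, 3 of 6 interferon gamma targets and 4 of 14 class I genes. With the block, high against low dye called 3, 4 and 7 in the same order. The shares of all genes in those fits are given above, and genes are named singly here. TLR3, SAMHD1 and MAVS rose in replicate 2, by 0.50, 0.46 and 0.13 on the log2 scale, and STING1 and TBK1 fell, by 0.30 and 0.17. None differed between high and low dye without the block, where 3 had an unadjusted p under 0.05, and with it the called genes included IKBKE, which rose by 0.28, and CGAS, which fell by 0.37. Of 15 targets typical of interferon gamma, 6 were tested. CIITA rose in replicate 2 by 1.21 while CD274 fell by 0.36 and GBP3 by 0.21, and in high dye cells GBP2 rose by 2.12 and WARS1 by 0.75. Of 15 class I antigen presentation genes 14 were tested. PSMB9 rose in replicate 2 by 0.73, and HLA-B, HLA-E and TAP2 fell by 0.37, 0.32 and 0.26. HLA-E and HLA-C rose in high dye cells by 0.43 and 0.24, and with the block HLA-B by 0.60 and TAP1 by 0.59. The HLA class I genes are near-identical and their reads are uncertain. In none of these lists was a gene called with LSD1 inhibition without the block, where 3 of the genes tested had an unadjusted p under 0.05.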

How the data were processed

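Poly(A) RNA of the 25 libraries was sequenced from a kit (NEBNext Ultra II RNA, per the labels' protocols) that does not record strand. The deposited values are raw counts of reads per Ensembl gene in each library, made by the authors with STAR and HTSeq on hg38 (GRCh38), per the submitters' processing notes. Versions, annotation and the strand setting are not given in the sources used here. A combined table of the same libraries was not used. The HTSeq totals of unassigned reads were left out of library sizes (4.33% to 7.72% of reads had no feature). Symbols were paired with 57532 genes, and GENCODE 29 gave the positions and exon lengths.

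Counts were scaled by TMM and tested with edgeR 4.0.16 (quasi-likelihood F test, R 4.3.3) on genes passing filterByExpr (minimum count 10, total 15), separately in the sort and drug sets, with Benjamini-Hochberg adjustment over all tested genes and a threshold of 0.05. The sort set used 1 fit of the 5 groups for the gates, 1 with the replicate added for the replicates, and 1 of the 16 gated libraries with an equal step per gate for the trend. In the drug set 14002 genes were tested. A standard error is the log2 fold change divided by the root of its F value. Log2 CPM used a prior count of 2. Without replicates a 2-fold difference was the limit. The tests were tested on simulated data with known changes. Alternatives were DESeq2 1.42.0, its size factors, no filter, other library sets, the replicate block and leaving out each library.

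To see if a replicate number marks a pair, deviations from the group means were correlated over genes within the sort set. All 40 pairs with the same number were positive (0.146 to 0.618, mean 0.455), and the 120 pairs with different numbers reached at most 0.288, so the number was taken as a pairing there. The drug set has 2 such pairs, too few for this check. Replicates of a group differed by a chi-square of at least 8.22 per degree of freedom, so no library was counted as a repeat of another. The library labelled ungated replicate 3 and the DMSO library, of different groups, differed by only 4.07, and the labels do not settle which cells the first holds.

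Values in every library were given for 12 members chosen by role, the 5 with the smallest p of the replicate term, and the 3 with the largest log2 fold change in each direction of each comparison. SAMD9L, HERC5, IFI44 and other members outside that rule were described where a role group or a call needed them. The members and lists were chosen with earlier results of these data known. 1 listed sensing gene, DDX58, was not matched by symbol and was not analysed here. Depth was 15015039 to 20030093 counts, and floors and chi-squares cover counting error only. Values of 2 genes of the wider pathway lists are not reported here.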

Additional observations from a re-analysis of the deposited data

Results flagged for a closer look

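Of 120 sets of 4 replicate values of the named members, 16 held a value far from the other 3, measured as the gap to the nearest value divided by the whole range. Chance alone gives about 1 such set in 20 where sets are independent and unselected. Several of these members were named for their values in these data, and all share the same libraries, so that rate does not apply to them. The cause of these values was not tested.

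Replicate 2 was the high value in 12 of the 16. For IFIT1 the ratio was 0.967 in midhigh dye (13.2 CPM, against 5.71 to 5.96 in the others) and 0.910 in midlow dye (11.5 against 4.26 to 4.91). IFI6 gave 0.911 in midhigh dye (24.97 against 10.7 to 11.9) and 0.873 in midlow dye (21.9 against 7.64 to 9.44). MX1 gave 0.920 in midhigh dye (2.53 against 0.815 to 0.952), OAS3 0.963 in midhigh dye (9.99 against 3.76 to 3.99) and IFIT2 0.851 in midlow dye (7.59 against 3.11 to 3.78). OAS2 gave 0.935 in high dye (1.18 against 0.480 to 0.525) and 0.928 in midlow dye (1.27 against 0.122 to 0.205). The scarcer genes were IFITM1 in low dye at 0.920 (0.967 against 0.256 to 0.313), ISG20 in low dye at 0.850 (1.73 against 1.28 to 1.35) and BST2 in midhigh dye at 0.843 (0.470 against 0.0627 to 0.127).

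The library labelled ungated replicate 3 gave 0.925 for OAS2 (3.45 CPM, against 0.296 to 0.534) and 0.842 for OAS1 (2.39 against 0.114 to 0.474). Low dye replicate 4 was high for OAS1 at 0.908 (0.490 against 0.0626 to 0.102), a difference of a few reads. Low dye replicate 1 was low for IRF9 at 0.878 (0.438 against 0.857 to 0.916).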

How the results depend on the processing

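With the replicate block, the gate term called 4201 genes and 7 members (1037 and 3 without), high against low dye 5433 and 11 (2589 and 5), the trend 6317 and 20 (3784 and 8), and LSD1 inhibition 2242 of 14002 and 17 (16 and 0). In the drug set each LSD1 inhibition library was nearest to the control of its number (chi-square per degree of freedom 9.71 and 11.04), but 2 pairs with different kinds of control are too few to show a pairing. With the block and without ungated replicate 3, chosen after seeing the data, the gate term called 4472 genes and 12 members, and high against low dye 5815 and 18. The block reversed none of the single named genes. DESeq2 called 122 genes and 1 member for LSD1 inhibition and 1867 genes for the gate term. With no filter on low counts, calls were 0 genes for LSD1 inhibition, 6 members for the gate term, 8 for high against low dye, and 19, 14 and 17 for replicates 1, 3 and 4. Only the 8 high and low dye libraries gave 1497 genes. With no gate in the fit, replicates 1 to 4 called 2268, 2946, 1803 and 2237 genes, replicates 1, 2 and 4 called 5, 10 and 4 members, and the replicate term 4865 genes and 13 members. The 16 gated libraries gave 14 members for replicate 1 and a median replicate share of 50.03%. Leaving out replicate 2 in every group, chosen after seeing the data, gave 3 members for high against low dye. The causes were not tested.

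Leaving out 1 library at a time, LSD1 inhibition called 108 to 331 genes and 1 to 16 members (medians −0.78 to 0.00029), with the highest counts without no drug replicate 2. Without DMSO replicate 1, DDX60 (range −0.80 to 0.056), HERC6 (−0.94 to 0.27), IFI44 (−1.27 to 0.31), IFI44L (−1.15 to 0.79), IFIH1 (−0.98 to 0.24), PARP14 (−0.57 to 0.19) and PARP9 (−0.82 to 0.26) turned positive; each lowest value was without no drug replicate 2. The gate term called 547 to 1406 genes and 1 to 3 members, with 547, 562, 597 and 602 genes without high dye 1, high dye 3, low dye 3 and low dye 4. High against low dye called 1255 to 2965 genes and 3 to 6 members (medians 0.19 to 0.46), with 1255 without high dye 3, 1519 without high dye 1 and 0.19 without high dye 2. The trend called 2514 to 4149 genes and 5 to 11 members (medians 0.10 to 0.16), with 2514 without high dye 3, and IFI44L ran from −0.014 without high dye 2 to 0.30 without low dye 2. Replicate 1 called 2738 to 3857 genes and 5 to 13 members (−0.39 to −0.25), replicate 2 3475 to 4889 and 12 to 29 (0.34 to 0.52), replicate 3 2213 to 3741 and 6 to 9 (−0.06 to 0.36), replicate 4 2944 to 4081 and 5 to 15 (−0.36 to −0.15), and the replicate term 6702 to 7702 and 19 to 30. The −0.06 was without ungated 3, 2213 and 2344 without midhigh dye 3 and high dye 3, and −0.15 and −0.16 without ungated 3 and 4. Over all alternatives, single named genes kept direction and side of the threshold in 1629 of their values, lost the call in 163, gained it in 82 and reversed in 8. Members at a few reads per library (OAS1, OAS2, BST2, IFITM1, IRF9) are limited by depth.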
